A study of Homo sapiens with 12 samples.

Results

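RNA levels of 60 genes from the short arm of chromosome 4 (4p) are described here in K562 cells, their subline K/VP.5 and its edited clone K/VP.5/edit-3, shortened to edit-3. The 60 genes were taken by symbol from a table of 58395 genes because 4p genes had been seen lower in K/VP.5 than in K562 and lower again in edit-3. Those comparisons chose the members, so the members' own differences are a description and were not tested as a group. Each symbol occurred once in the table, and all 60 genes lay on 4p, between position 499210 (the start of PIGG) and position 48269864 (the end of TEC) of chromosome 4 in GRCh38. Of the 60, 58 had enough reads to be fitted, and WFS1 and PROM1 did not.

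RNA was sequenced in 12 libraries, 4 from each line. K562 is an established human line from chronic myeloid leukemia, and K/VP.5 is an etoposide-resistant subline grown from a single K562 clone. Edit-3 is 1 clone of K/VP.5 whose TOP2A gene, which encodes the etoposide target topoisomerase IIα, was edited with Cas9, a guide RNA and a repair template at the 5′ splice site that follows exon 19. The labels state for all 3 lines together that 0.5 µM etoposide was put in the medium every other week, and do not say whether the parental K562 cells received it. Each derived line is thus 1 clone, and a difference between lines cannot be told apart from a difference between clones. Whether libraries of the same line came from separate cultures is not stated, so p-values reflect the spread among libraries alone, and that spread may be technical.

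The short arm of chromosome 4 is gene-rich toward its end. Loss of that end causes Wolf-Hirschhorn syndrome, and HTT, the gene of Huntington disease, and FGFR3, the gene of achondroplasia, lie there. Genes of a chromosome arm share a position and not a pathway, and the members range from a ribosomal protein to a cohesin regulator, a splicing helicase and an iron-sensing ubiquitin ligase subunit. K562 cells have an abnormal karyotype with extra and rearranged chromosomes. Only RNA was measured here, so gene copies, transcription and RNA decay, or fewer expressing cells and less RNA per cell, cannot be told apart.

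Each library held 25.3 M to 37.1 M reads. Libraries of the same line differed by more than counting noise in every pair, with chi-square values per degree of freedom from 6.68 to 67.4, and the highest was K562 replicate 1 against K562 replicate 4. Of 11 erythroid and leukemic markers of K562, 10 were above 1 CPM (counts per 1000000 reads, scaled to library size) in all 12 libraries, and HBE1 was below. Their summed level was 3480 to 4910 CPM in K562, 3000 to 3760 CPM in K/VP.5 and 2980 to 4380 CPM in edit-3. Of 9 markers of other blood cells, 6 were below 1 CPM in all libraries and MS4A1 was at 0, with sums of 3.22 to 6.48, 3.6 to 4.28 and 3.72 to 5.91 CPM. Among 3 non-blood markers, EPCAM averaged 169, 154 and 331 CPM, PECAM1 32.6, 1.56 and 18.3 CPM, and COL1A1 1.47, 18.8 and 7.55 CPM in K562, K/VP.5 and edit-3, and their part in the results was not tested. TOP2A itself stood at 519 ± 25.8, 359 ± 14.5 and 416 ± 25.1 CPM (SD, n = 4), which does not check the edit, because a count per gene does not separate splice forms.

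Promoters of 3 members that behaved differently are shown: RPL9 had successively lower levels, WDR1 was lower in K/VP.5 with no second decrease, and FGFR3 was not lower. Each sequence is the 250 bases before the gene's start in RefSeq, build GRCh38.p14, written 5′ to 3′ on the gene's strand. Capitals mark matches to a GC box (GGGCGG or, on the other strand, CCGCCC) or a CCAAT box (CCAAT or ATTGG).
RPL9: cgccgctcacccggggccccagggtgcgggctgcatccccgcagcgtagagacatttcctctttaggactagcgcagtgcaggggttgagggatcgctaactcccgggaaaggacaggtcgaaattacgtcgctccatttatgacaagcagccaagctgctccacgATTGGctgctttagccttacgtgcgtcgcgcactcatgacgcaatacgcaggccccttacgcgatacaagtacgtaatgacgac
WDR1: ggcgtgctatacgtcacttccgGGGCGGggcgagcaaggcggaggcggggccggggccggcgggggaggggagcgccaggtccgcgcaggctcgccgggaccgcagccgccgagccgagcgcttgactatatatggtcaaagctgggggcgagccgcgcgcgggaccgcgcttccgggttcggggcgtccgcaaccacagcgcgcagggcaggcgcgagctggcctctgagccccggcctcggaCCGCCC
FGFR3: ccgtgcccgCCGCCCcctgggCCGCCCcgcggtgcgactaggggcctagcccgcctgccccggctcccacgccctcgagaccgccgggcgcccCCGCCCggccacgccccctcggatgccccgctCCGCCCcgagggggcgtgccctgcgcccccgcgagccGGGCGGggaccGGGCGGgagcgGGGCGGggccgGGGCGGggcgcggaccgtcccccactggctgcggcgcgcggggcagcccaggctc
They lie at chr4:39458923-39459172 on the minus strand for RPL9, chr4:10116800-10117049 on the minus strand for WDR1 and chr4:1793043-1793292 on the plus strand for FGFR3. By the GENCODE positions used elsewhere here, RPL9 starts at 39458949 and WDR1 at 10116949. Part of each of these sequences thus lies inside the gene by that annotation, including the last GC box of WDR1. The RPL9 promoter held 1 CCAAT box and 0 GC boxes and was 58.4% G and C. The WDR1 promoter held 2 GC boxes at 76.8% G and C, and the FGFR3 promoter 8 GC boxes at 86.8%. FGFR3 had the highest G and C content among the member promoters and KLHL5, another member with its own course, the lowest at 32%.

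A promoter was found for 51 of the 60 members and not for the other 9, which were PIGG, LETM1, DGKQ, MFSD10, TMEM129, MED28, TAPT1, GRPEL1 and SEPSECS. A GC box was present in 33 of the 51 (64.7%), against 42.3% of all 27305 promoters of the same length. A CCAAT box was present in 18 (35.3%) against 33%, and the letters TATAAA or TTTATA in 1 (1.96%) against 11.1%. None of these motifs contains another. Median G and C content was 71.2% in the member promoters and 58% in all promoters. All promoters means 1 per gene symbol with no selection by gene type or expression, while 58 of the 60 members had enough reads to be fitted. The sets compared are thus unlike. A match is a description of the letters and not evidence of a bound factor.

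The members as a whole stood at 3 successive levels. Their median log2 fold change was -0.59 in K/VP.5 versus K562, a ratio of 0.666, with an interquartile range of -0.73 to -0.47. It was -0.43 in edit-3 versus K/VP.5, a ratio of 0.744, with an interquartile range of -0.50 to -0.26. From K562 to edit-3 the median was -0.97, a ratio of 0.51, with an interquartile range of -1.13 to -0.89. The median over all 18286 genes tested was 0.00 in each comparison. The 3 comparisons share libraries in pairs, so they are set side by side and not as separate evidence.

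A gene was called lower or higher when edgeR's quasi-likelihood test gave a Benjamini-Hochberg adjusted p under 0.05 over all genes tested. In K/VP.5 versus K562, 52 of the 58 fitted members were called lower, 0 higher and 6 neither, where 18.3% of all genes tested were called lower and 36.6% either way. In edit-3 versus K/VP.5, 43 were called lower, 3 higher and 12 neither, against 10.6% called lower, 12.9% called higher and 23.6% either way among all genes. In edit-3 versus K562, 56 were called lower, 1 higher and 1 neither, against 18.6% lower, 20.6% higher and 39.2% either way. Since the same contrasts chose the members, the difference from those shares carries no further weight.

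A total of 40 members (69%) were called lower in both steps, against 1.86% of all genes. In 39 members (67.2%; 2.01% of all genes) every edit-3 library lay below every K/VP.5 library, and every K/VP.5 library below every K562 library. Taken 1 step at a time, all K/VP.5 libraries lay below all K562 libraries for 50 members (18.4% of all genes), and all edit-3 libraries below all K/VP.5 libraries for 44 (12.2%). All edit-3 libraries lay below all K562 libraries for 56 members (15.9%). The other 2 fitted members were FGFR3 and SH3BP2.

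**Figure D1:**
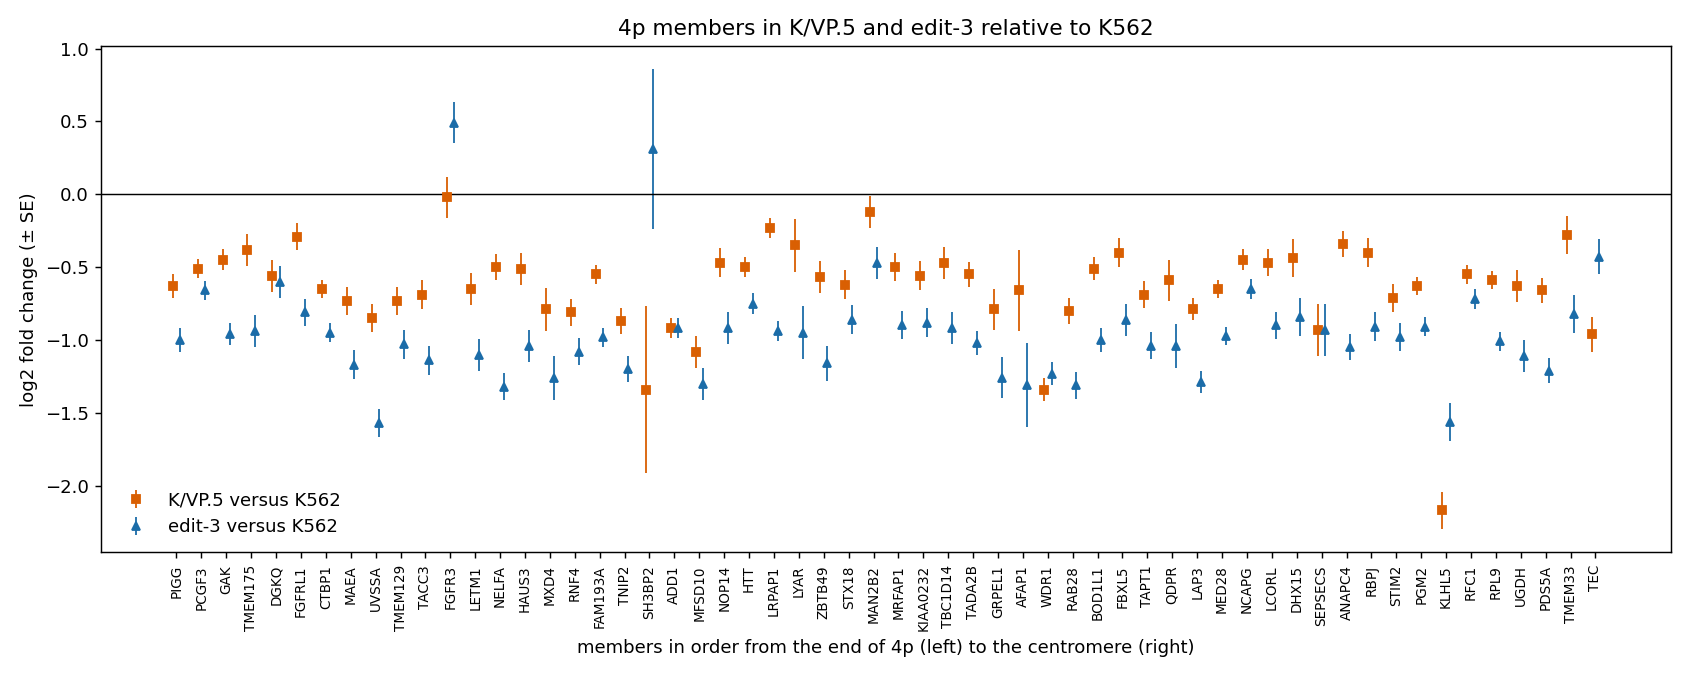
Log2 fold change of the 58 fitted members relative to K562 (y axis, ± SE) in K/VP.5 and in edit-3, with members placed along the x axis in order from the end of 4p to the centromere. Most edit-3 points lie below their K/VP.5 points along the whole arm, with medians of -0.97 and -0.59, while FGFR3 (-0.02 in K/VP.5, 0.49 in edit-3) and KLHL5 (-2.17 in K/VP.5, -1.56 in edit-3) depart from this order.

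The same levels were seen library by library. Relative to the K562 mean of each gene, the median log2 level of the members was 0.00, 0.00, 0.03 and -0.04 in K562 replicates 1 to 4. It was -0.61, -0.54, -0.63 and -0.59 in the K/VP.5 libraries and -0.95, -1.05, -1.0 and -0.98 in the edit-3 libraries. No library of one line reached the range of another line. The members took 0.802 ± 0.0321% of all reads in K562, 0.538 ± 0.00841% in K/VP.5 and 0.423 ± 0.0102% in edit-3 (SD, n = 4). K562 replicate 4 had the lowest member share of its line at 0.754%, above every K/VP.5 library (0.529% to 0.549%).

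**Figure D2:**
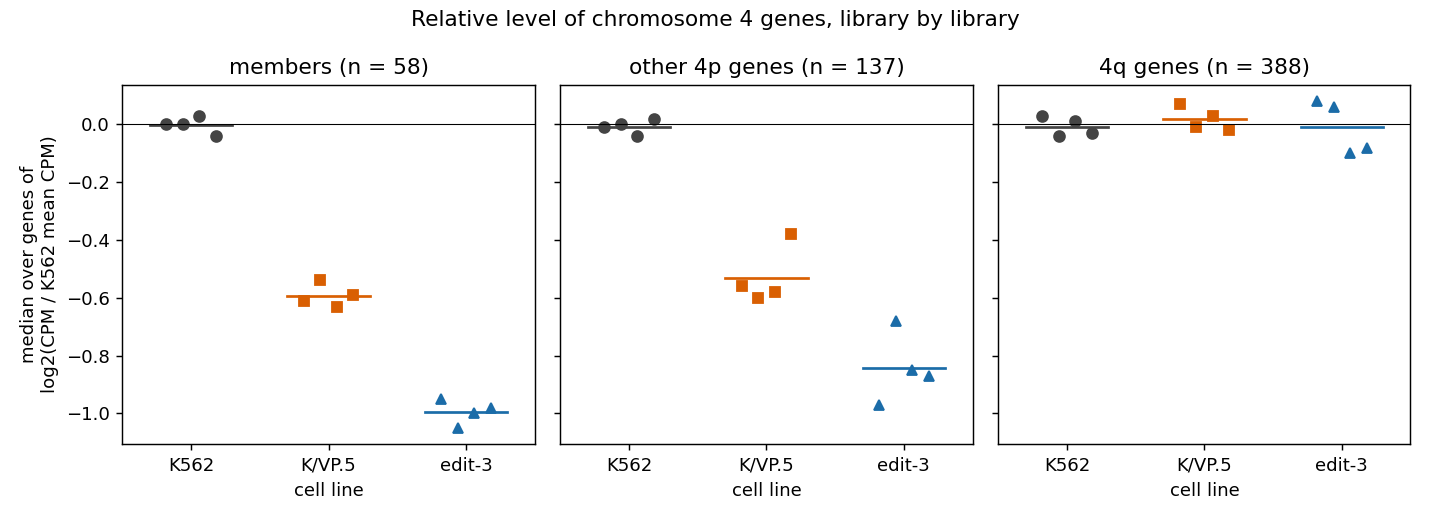
Median over genes of log2(CPM divided by the K562 mean CPM) (y axis) for each library (points) of the 3 cell lines (x axis), with the mean of 4 libraries as a line, for members, other 4p genes and genes of the long arm detected in all libraries. The member medians form 3 separate levels, near 0, from -0.63 to -0.54 and from -1.05 to -0.95, while the long-arm medians stay between -0.10 and 0.08.

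Membrane traffic, organelle and mitochondrial genes were the largest role group, with 14 fitted members. Of these, 12 were called lower in K/VP.5 than in K562 (median -0.56), 12 lower in edit-3 than in K/VP.5 (median -0.45) and all 14 lower in edit-3 than in K562 (median -0.95). Among all genes tested, 18.3%, 10.6% and 18.6% were called lower in these comparisons and 18.3%, 12.9% and 20.6% higher. These shares go beside the counts of every role group below. The members were chosen on these contrasts, so the counts are not results about the roles. LETM1, a mitochondrial inner membrane protein that exchanges cations, had the most reads by CPM, a scale that is not corrected for gene length (position 1811479 to 1856247, minus strand). Its libraries gave CPM values of 557, 523, 561 and 413 for K562, 326, 358, 323 and 300 for K/VP.5, and 270, 198, 257 and 235 for edit-3. The lines did not overlap, although K562 replicate 4 was the lowest of its line, and the log2 fold changes were -0.65 and -0.45 for the successive steps (SE 0.11 for each). RAB28, a small GTPase, had the most negative change of this group in edit-3 versus K562. Its libraries had CPM values of 28.5, 23.5, 28 and 26.2 for K562, 15.7, 14.4, 15.4 and 15.3 for K/VP.5, and 11.5, 10.6, 9.55 and 11.1 for edit-3. These are again 3 separate ranges, with a log2 fold change of -1.31 (SE 0.093) from K562 to edit-3.

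Members beyond those picked by the naming rule are also given in what follows, and they were chosen after their values were seen. HTT, which encodes huntingtin, a large scaffold protein of vesicle transport, averaged 190 ± 9.87 CPM in K562, 135 ± 6.08 in K/VP.5 and 113 ± 8.59 in edit-3 (SD, n = 4), with log2 fold changes of -0.50 and -0.25, the latter not called without edit-3 replicate 3 (-0.22). GRPEL1, the nucleotide exchange factor of the mitochondrial HSP70 chaperone, averaged 105, 61 and 44.1 CPM. Its second step (-0.47, SE 0.14) was not called without edit-3 replicate 2 (-0.35) or 4 (-0.45), or with K/VP.5 replicate 1 (-0.45) or 2 (-0.48) left out. LRPAP1, a chaperone of LDL-receptor family proteins, had a small first step (-0.23, SE 0.067) and a larger second (-0.71, SE 0.067). The first was not called without K/VP.5 replicate 1 (-0.20) or with no low-count filter (-0.22). MFSD10, a membrane transporter, had the reverse: its first step was -1.08 (SE 0.11), and its second, at -0.22 (SE 0.11), was not called. STX18, a SNARE protein of the endoplasmic reticulum, also was not called in the second step (-0.24, SE 0.098), except without K/VP.5 replicate 3 (-0.32).

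MAN2B2, a mannosidase, stood apart in this group with the change nearest 0. Library by library, the CPM values were 33.1, 41.1, 36.1 and 45.2 for K562, 30.8, 36.5, 35 and 40.7 for K/VP.5, and 24.9, 30.3, 27.1 and 30.1 for edit-3. K/VP.5 overlapped K562 (log2 fold change -0.12, SE 0.11, not called), and all edit-3 libraries lay below all K562 libraries (-0.47, SE 0.11). The decrease from K/VP.5 to edit-3 (-0.35, SE 0.11) was called with all libraries but not without edit-3 replicate 1 (-0.30) or 3 (-0.33), or without K/VP.5 replicate 2 (-0.36), 3 (-0.36) or 4 (-0.30). TMEM33, an endoplasmic reticulum membrane protein, likewise was not called in the first step (-0.28, SE 0.13) and was lower in the second (-0.55, SE 0.13). With the replicate number as a block, its first step was called lower (-0.26), as it was without K562 replicate 4 (-0.38) or edit-3 replicate 1 (-0.28).

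Transcription and chromatin genes, 10 in number, were all called lower in K/VP.5 than in K562 (median -0.53) and all lower in edit-3 than in K562 (median -0.99). In the second step 9 were called lower (median -0.47), and PCGF3, a Polycomb group RING finger protein, was not (-0.15, SE 0.067). MXD4, a partner of MAX (-0.47), was not called in that step without edit-3 replicate 1 (-0.33), or with K/VP.5 replicate 2 (-0.48), 3 (-0.45) or 4 (-0.48) left out. CTBP1, a corepressor that recruits histone-modifying enzymes, had the most reads (position 1211448 to 1249953, minus strand). The single libraries gave CPM values of 202, 199, 219 and 200 for K562, 124, 137, 132 and 131 for K/VP.5, and 106, 99.6, 107 and 112 for edit-3, with no overlap between lines. Its log2 fold changes were -0.65 (SE 0.064) and -0.30 (SE 0.063). NELFA, a subunit of the complex that pauses RNA polymerase II near promoters, had the most negative second step of all members (position 1982714 to 2041903, minus strand). It gave CPM values of 127, 121, 150 and 112 for K562, 88, 91.4, 96.2 and 84.5 for K/VP.5, and 54.2, 47.3, 53.8 and 49 for edit-3. The second step, at -0.82 (SE 0.09), was larger than the first, at -0.50 (SE 0.09), and the lines did not overlap. RBPJ, the DNA-binding partner of Notch, averaged 108 ± 12.3, 81.2 ± 3.83 and 57 ± 7.18 CPM, and MED28, a Mediator subunit, 177 ± 6.46, 113 ± 0.805 and 90.3 ± 5.15 CPM.

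Among 7 genes of DNA replication, repair, chromosome structure and mitosis, all 7 were called lower in K/VP.5 than in K562 (median -0.55) and all 7 lower in edit-3 than in K562 (median -1.05). In the second step 5 were called lower (median -0.53), while RFC1, the large subunit of the clamp loader, and NCAPG, a condensin subunit, were not, at -0.18 (SE 0.068) and -0.20 (SE 0.072). RFC1 was called with DESeq2 (-0.19) and without edit-3 replicate 2 (-0.22). NCAPG was called with DESeq2 (-0.21), with TMM factors computed without chromosome 4 (-0.21), and without edit-3 replicate 1 (-0.24), K562 replicate 1 (-0.20) or 4 (-0.20), or with K/VP.5 replicate 4 (-0.24) left out. PDS5A, a regulator of cohesin, had the most reads (position 39822863 to 39977956, minus strand). Its libraries had CPM values of 485, 408, 456 and 379 for K562, 283, 265, 296 and 249 for K/VP.5, and 200, 193, 173 and 180 for edit-3. These are 3 separate ranges, with steps of -0.66 and -0.55 (SE 0.086 each).

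UVSSA, which acts in transcription-coupled DNA repair, had the most negative change of all members from K562 to edit-3 (-1.57, SE 0.097; position 1347266 to 1395992, plus strand). Library by library, the CPM values were 49.1, 55.4, 48.4 and 49.5 for K562, 26.5, 31.6, 25 and 29.6 for K/VP.5, and 15.7, 15.5, 18.8 and 18.2 for edit-3. Both steps were large and the lines did not overlap (-0.85, SE 0.094, then -0.72, SE 0.096). ANAPC4, a subunit of the anaphase-promoting complex, had a second step (-0.72, SE 0.089) larger than its first (-0.34, SE 0.088). TACC3, which stabilises spindle microtubules, averaged 285 ± 23.2, 176 ± 10.1 and 129 ± 19.4 CPM.

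All 4 ubiquitin ligase genes were called lower in each comparison, with medians of -0.73, -0.37 and -1.06 for the first step, the second step and both together. MAEA, a subunit of the CTLH ligase first described in erythroblast attachment to macrophages, had the most reads (position 1289851 to 1340147, plus strand). The single libraries gave CPM values of 186, 172, 199 and 149 for K562, 107, 109, 111 and 97.8 for K/VP.5, and 86.6, 67.1, 81.7 and 77.8 for edit-3. The ranges were separate, with steps of -0.73 and -0.44 (SE 0.097 each). FBXL5, the iron-sensing subunit that directs iron regulatory proteins to degradation, averaged 35.7 ± 2.64, 27 ± 1.89 and 19.6 ± 2.91 CPM. RNF4, a ligase that recognises SUMO chains, averaged 102 ± 2.85, 58 ± 4.59 and 47.9 ± 5.9 CPM, and shares exonic positions with its neighbour FAM193A. The second step of RNF4 (-0.28) was not called with only the compared lines in the fit (-0.29), without edit-3 replicate 2 (-0.19) or 4 (-0.31), or without K/VP.5 replicate 1 (-0.29), 2 (-0.26) or 4 (-0.27). That of TMEM129, a ligase of the endoplasmic reticulum (-0.30), was not called without edit-3 replicate 1 (-0.23) or 2 (-0.30), or with K/VP.5 replicate 3 (-0.30) or 4 (-0.28) left out.

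All 4 metabolic enzymes and peptidases were also called lower in each comparison, with medians of -0.63, -0.47 and -1.08. LAP3, a leucine aminopeptidase, had the most reads of the group (position 17577192 to 17607972, plus strand). It gave CPM values of 129, 122, 127 and 108 for K562, 74.5, 73.6, 68.7 and 64.8 for K/VP.5, and 52.9, 47.5, 49.1 and 49.6 for edit-3, with no overlap and steps of -0.79 and -0.50 (SE 0.076 each). QDPR, which regenerates tetrahydrobiopterin, was the exception in order, since K562 replicate 4 (26 CPM) lay within the K/VP.5 range of 22.6 to 28.3 CPM. Its second step (-0.46) was not called without edit-3 replicate 2 (-0.44), 3 (-0.45) or 4 (-0.43), or without K/VP.5 replicate 1 (-0.42), 2 (-0.46) or 3 (-0.47). UGDH, which makes UDP-glucuronate, averaged 50.2 ± 7.75, 32.4 ± 1.7 and 23.3 ± 2.34 CPM.

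Of 5 genes of RNA processing, ribosomes and translation, 4 were called lower in each step (medians -0.47 and -0.42) and all 5 lower in edit-3 than in K562 (median -0.93). RPL9, a protein of the large ribosomal subunit whose promoter is given above, had the most reads of all members (position 39452521 to 39458949, minus strand). Its libraries had CPM values of 954, 1010, 878 and 957 for K562, 620, 655, 606 and 647 for K/VP.5, and 503, 453, 475 and 457 for edit-3. The lines were well apart, with log2 fold changes of -0.59 (SE 0.062) and -0.42 (SE 0.062), the latter equal to the group's median. RPL9 has pseudogene copies and overlaps LIAS on the opposite strand, so its reads may be partly shared. LYAR, a nucleolar protein, was not called in the first step (-0.35, SE 0.18) and was called lower in the second (-0.59, SE 0.18). With the replicate number as a block, its first step was called lower (-0.34), as it was without K562 replicate 4 (-0.47). Its second step was not called without edit-3 replicate 2 (-0.47), 3 (-0.57) or 4 (-0.58), without K/VP.5 replicate 1 (-0.53) or 2 (-0.61), or with no low-count filter (-0.61). DHX15, the splicing helicase, was called lower in the second step (-0.40), but not without edit-3 replicate 2 (-0.30), 3 (-0.41) or 4 (-0.40), or with K/VP.5 replicate 1 (-0.40), 2 (-0.41) or 3 (-0.38) left out. SEPSECS, which makes the selenocysteine form of its transfer RNA, was called lower in the first step alone, with -0.93 (SE 0.18) and then -0.01 (SE 0.18, not called).

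Per kilobase of exon, which allows genes to be compared with each other, RPL9 at 136 and MRFAP1 at 121 RPKM (the CPM divided by the exon length in kilobases) had the highest mean levels over the 12 libraries, and AFAP1 at 0.0777 had the lowest among fitted members. MRFAP1 encodes a protein that binds the chromatin factor MRG15, and with FAM193A and KIAA0232 it was left without a role group. Library by library, the CPM values were 473, 448, 452 and 354 for K562, 327, 322, 294 and 274 for K/VP.5, and 255, 217, 238 and 214 for edit-3. The lines did not overlap, and the steps were -0.50 and -0.40 (SE 0.095 each). All 3 genes without a role group were called lower in each comparison, with medians of -0.55, -0.40 and -0.90. The second step of KIAA0232 (-0.32) was not called without edit-3 replicate 1 (-0.29) or 3 (-0.28), or with K/VP.5 replicate 2 (-0.31) or 4 (-0.30) left out.

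**Figure D3:**
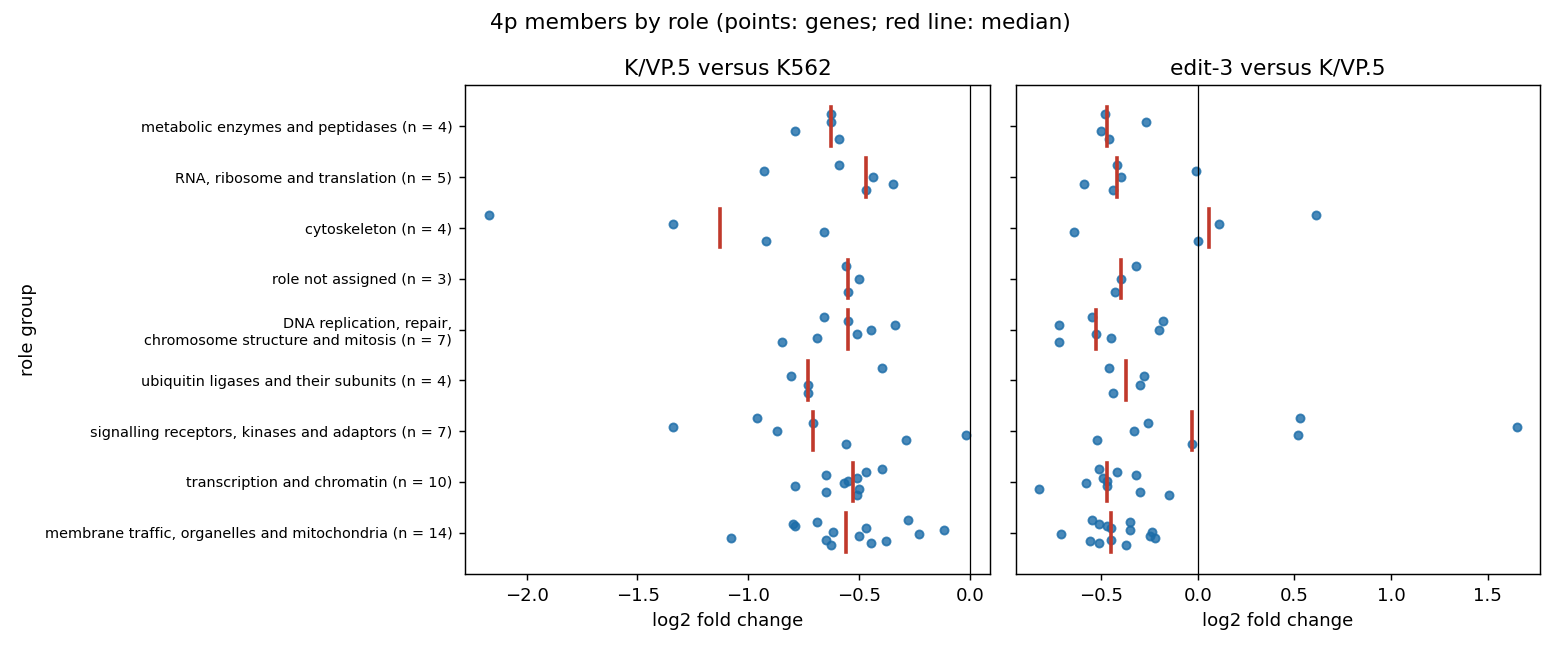
Log2 fold change (x axis) of each fitted member (points) in K/VP.5 versus K562 and in edit-3 versus K/VP.5, by role group (y axis, with the number of genes), with the group median as a red line. In the second panel 7 of the 9 medians lie between -0.53 and -0.37, while the cytoskeletal (0.05) and signalling (-0.03) groups lie near 0.

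The cytoskeletal and signalling genes had the role-group medians nearest 0 in the second step, and the difference from the other groups was not tested. Of 4 fitted cytoskeletal genes, 3 were called lower in K/VP.5 than in K562, with a median of -1.13, and 0 were called lower in edit-3 than in K/VP.5, with a median of 0.05. WDR1, a partner of cofilin in actin disassembly whose promoter is shown above, gave CPM values of 496, 556, 517 and 581 for K562, 192, 225, 209 and 226 for K/VP.5, and 209, 223, 235 and 251 for edit-3 (position 10074339 to 10116949, minus strand). Its first step was -1.34 (SE 0.08), and in the second the libraries overlapped at 0.11 (SE 0.079). ADD1, the α subunit of the membrane skeleton protein adducin, averaged 338 ± 18.9, 178 ± 13.3 and 178 ± 1.26 CPM, a change of -0.92 (SE 0.068) and then 0.00.

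KLHL5, a kelch-repeat protein, had the most negative first step of all members, at -2.17 (SE 0.13; position 39045039 to 39126857, plus strand). The single libraries gave CPM values of 42.3, 40.7, 41.9 and 42.6 for K562, 9.01, 10.9, 8.15 and 9.03 for K/VP.5, and 12.8, 18.3, 11.7 and 14 for edit-3. All edit-3 libraries lay above all K/VP.5 libraries and below all K562 libraries, and the second step was called higher (0.61, SE 0.13). AFAP1, an actin filament adaptor, was near the limit of detection, with CPM values of 0.919, 1.28, 1.2 and 1.21 for K562, 0.51, 1.1, 0.437 and 0.853 for K/VP.5, and 0.42, 0.601, 0.505 and 0.332 for edit-3. Neither of its steps was called (-0.66, SE 0.28, and -0.64, SE 0.3), and its K/VP.5 libraries overlapped those of both other lines. With the replicate number as a block the first step of AFAP1 was called (-0.68), as it was without K/VP.5 replicate 2 (-0.91).

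Signalling genes had the widest range of the role groups in the second step, from -0.52 to 1.65. Of 7, 5 were called lower in K/VP.5 than in K562 (median -0.71). In edit-3 versus K/VP.5, 2 were called lower, 2 higher and 3 neither (median -0.03), and 5 were lower and 1 higher in edit-3 than in K562 (median -0.60). FGFR3, a receptor tyrosine kinase for fibroblast growth factors, gave CPM values of 75.7, 106, 83.5 and 95.2 for K562, 81.1, 104, 83.5 and 85.7 for K/VP.5, and 121, 94.1, 144 and 148 for edit-3 (position 1793293 to 1808872, plus strand). K562 and K/VP.5 overlapped throughout (-0.02, SE 0.14), and edit-3 replicate 2 lay among them. FGFR3 was called higher in edit-3 than in K/VP.5 (0.52, SE 0.14) and than in K562 (0.49, SE 0.14). Without edit-3 replicate 3 (0.45), edit-3 replicate 4 (0.42) or K/VP.5 replicate 1 (0.46), the difference from K/VP.5 was not called, and without edit-3 replicate 4 (0.39) the difference from K562 was not either. Its promoter, printed above, had the most GC boxes of the 3 shown.

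FGFRL1, a relative of FGFR3 without the kinase part, had log2 fold changes of -0.29 (SE 0.09) and -0.52 (SE 0.09). The first was not called without K562 replicate 3 (-0.23), or with K/VP.5 replicate 1 (-0.24) or 3 (-0.27) left out. TEC, a tyrosine kinase of blood cells and the member nearest the centromere, gave CPM values of 12.7, 13.6, 13 and 13.8 for K562, 7, 6.41, 7.64 and 6.18 for K/VP.5, and 10.4, 11.5, 9.66 and 7.81 for edit-3 (position 48135783 to 48269864, minus strand). It was lower in K/VP.5 than in K562 (-0.96, SE 0.12), higher in edit-3 than in K/VP.5 (0.53, SE 0.12) and lower in edit-3 than in K562 (-0.43, SE 0.12). The 3 ranges did not overlap. DGKQ, a diacylglycerol kinase, gave CPM values of 53.6, 58.7, 56.2 and 61.2 for K562, 33.2, 40.8, 37.2 and 44.5 for K/VP.5, and 31.4, 36.2, 41.2 and 43.2 for edit-3. Both derived lines lay below K562, by -0.56 (SE 0.11) and -0.60 (SE 0.11), and overlapped each other.

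SH3BP2, an adaptor of immune receptor signalling, had the largest SE of the fitted members. It gave CPM values of 7.42, 19.5, 9.39 and 34.4 for K562, 3.66, 7.86, 6.66 and 9.67 for K/VP.5, and 9.05, 39.4, 17.1 and 21.7 for edit-3. The lines overlapped, and neither step was called (-1.34, SE 0.57, and 1.65, SE 0.57). With the replicate number as a block the first step was called, at -1.21. The second step was called without edit-3 replicate 1 (1.90) or K562 replicate 4 (1.64), with a stricter filter (1.66), with only the compared lines in the fit (1.63) and with DESeq2 (1.63). STIM2, a calcium sensor of the endoplasmic reticulum, was lower in the first step (-0.71, SE 0.095) and not called in the second (-0.26, SE 0.095), except without K562 replicate 1 (-0.26) or 4 (-0.26), or with K/VP.5 replicate 4 (-0.32) left out. TNIP2, an inhibitor of NF-κB activation, was lower in both, by -0.87 and -0.33 (SE 0.087 each).

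**Figure D4:**
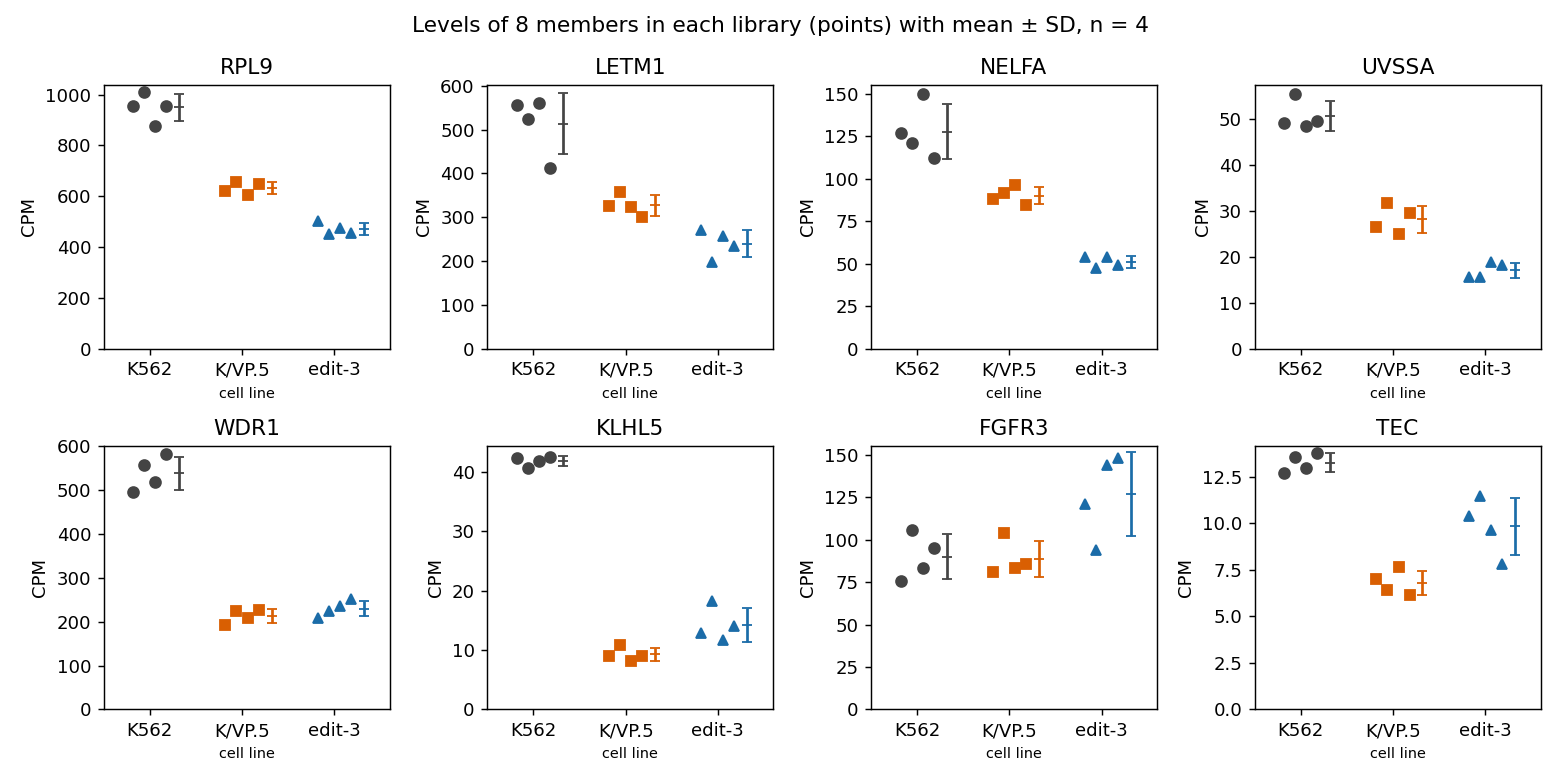
Level in CPM (y axis, from 0) of 8 members in each library (points) of the 3 cell lines (x axis), with mean ± SD of 4 libraries beside the points. RPL9, LETM1, NELFA and UVSSA decrease at each step (RPL9 means 950, 632 and 472 CPM), WDR1 is low in both derived lines (537, 213 and 229 CPM), KLHL5 and TEC are lowest in K/VP.5, and FGFR3 is highest in edit-3 (90, 88.5 and 127 CPM).

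The members removed for low counts had too few reads for a fold change. WFS1, which encodes wolframin of the endoplasmic reticulum, had 5 reads in K562, 20 in K/VP.5 and 1 in edit-3 over 4 libraries each. PROM1, the CD133 antigen of stem and progenitor cells, had 3 reads in K562 and 0 in both derived lines. For PROM1, a count of 0 allows up to 3 reads over the 4 libraries, by counting error only, so a difference was not detectable at this depth. The WFS1 libraries of K/VP.5 stood at 0, 0.177, 0.109 and 0.32 CPM and overlapped those of both other lines, and the difference in WFS1 was not tested.

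Exons of 20 members overlapped exons of another annotated gene, in 14 cases on the opposite strand, and in 16 cases the other gene was itself among those tested. No source used here gives the strand setting of the counting, so reads of such pairs could not be separated. The 39 fitted members without overlap had medians of -0.63, -0.40 and -0.96 for the first step, the second step and both together. The 19 with overlap had medians of -0.55, -0.43 and -0.98.

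The members were then set beside the rest of chromosome 4. The table held 635 other 4p genes, of which 145 were tested, and 1809 genes of the long arm (4q), of which 420 were tested. The other 4p genes had medians of -0.55, -0.29 and -0.83 in K/VP.5 versus K562, edit-3 versus K/VP.5 and edit-3 versus K562. The test called 77, 47 and 89 of them lower and 15, 10 and 11 higher, and 31 (21.4%) lower in both steps. Many of them had few reads. Among the 42 with a mean of 10 CPM or more, the medians were -0.59, -0.30 and -0.98, beside -0.59, -0.42 and -0.97 for the 55 members above that level.

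The long arm, which the choice of members did not use, did not share these levels. Its medians were 0.06, -0.05 and 0.02. The test called 81, 62 and 80 of its genes lower (19.3%, 14.8% and 19%), against 18.3%, 10.6% and 18.6% of all genes. It called 99, 43 and 100 higher, where 18.3%, 12.9% and 20.6% of all genes were. In the second step the 4q share called lower was thus above that of all genes, and this difference was not tested. Only 8 of the 420 (1.9%) were called lower in both steps, against 1.86% of all genes. The 4q genes took 1.64 ± 0.0633% of reads in K562, 1.61 ± 0.0361% in K/VP.5 and 1.59 ± 0.099% in edit-3 (SD, n = 4). No difference in that share passed an exact two-sided permutation test, with p = 0.429 for K/VP.5 versus K562, 0.657 for edit-3 versus K/VP.5 and 0.4 for edit-3 versus K562. Adjusted over the 3 comparisons these were 0.643, 0.657 and 0.643, and the smallest p that the design allows is 0.0286.

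Along the chromosome, the level relative to K562 changed near the centromere in both derived lines. In bins of 10 Mb the 5 medians of 4p ran from -0.71 to -0.50 in K/VP.5 versus K562, from -0.40 to -0.17 in edit-3 versus K/VP.5 and from -0.98 to -0.83 in edit-3 versus K562. The last of these bins, with the medians of -0.50 and -0.83, also held ANKRD20A17P, AC119751.6 and AC119751.4, which were counted as 4q by the 49.5 Mb cut. The 14 bins of 4q with at least 5 tested genes ran from -0.33 to 0.34, from -0.23 to 0.09 and from -0.35 to 0.22. In edit-3 versus K/VP.5 the ranges of the arms thus overlapped. The 4p bin from 30 to 40 Mb had a median of -0.17 in that step, and the 4q bin from 170 to 180 Mb one of -0.23. Toward the end of 4p, outside the members, ZNF721 was at -0.28 and -0.42 for the steps and ZNF595 at 0.89 and -0.24. On the other side OCIAD1, the last tested protein-coding 4p gene, was at -0.60 and -0.42, and DCUN1D4 and USP46, the first tested protein-coding genes of 4q, were at -0.19 and 0.03 and at 0.06 and 0.13.

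In bins of 5 Mb the difference at the centromere was smaller, but the last 4p bin also held genes counted as 4q. That bin, from 45 to 50 Mb, held 23 tested genes with medians of -0.23, -0.19 and -0.46. In K/VP.5 versus K562 9 of them were called lower and 9 higher. The 23 include ANKRD20A17P, AC119751.6 and AC119751.4, at 1.82, 4.45 and 0.67 in K/VP.5 versus K562. They are counted as 4q only because they start from 49.5 Mb on, where 4p was taken to end. All lie above the bin's median in that comparison. Medians of the bin's genes counted as 4p were not computed, so whether 4p itself changed less sharply there cannot be told. TEC was the only member in that bin. The neighbouring bin from 40 to 45 Mb, with 14 genes, had medians of -0.65, -0.48 and -0.97.

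**Figure D5:**
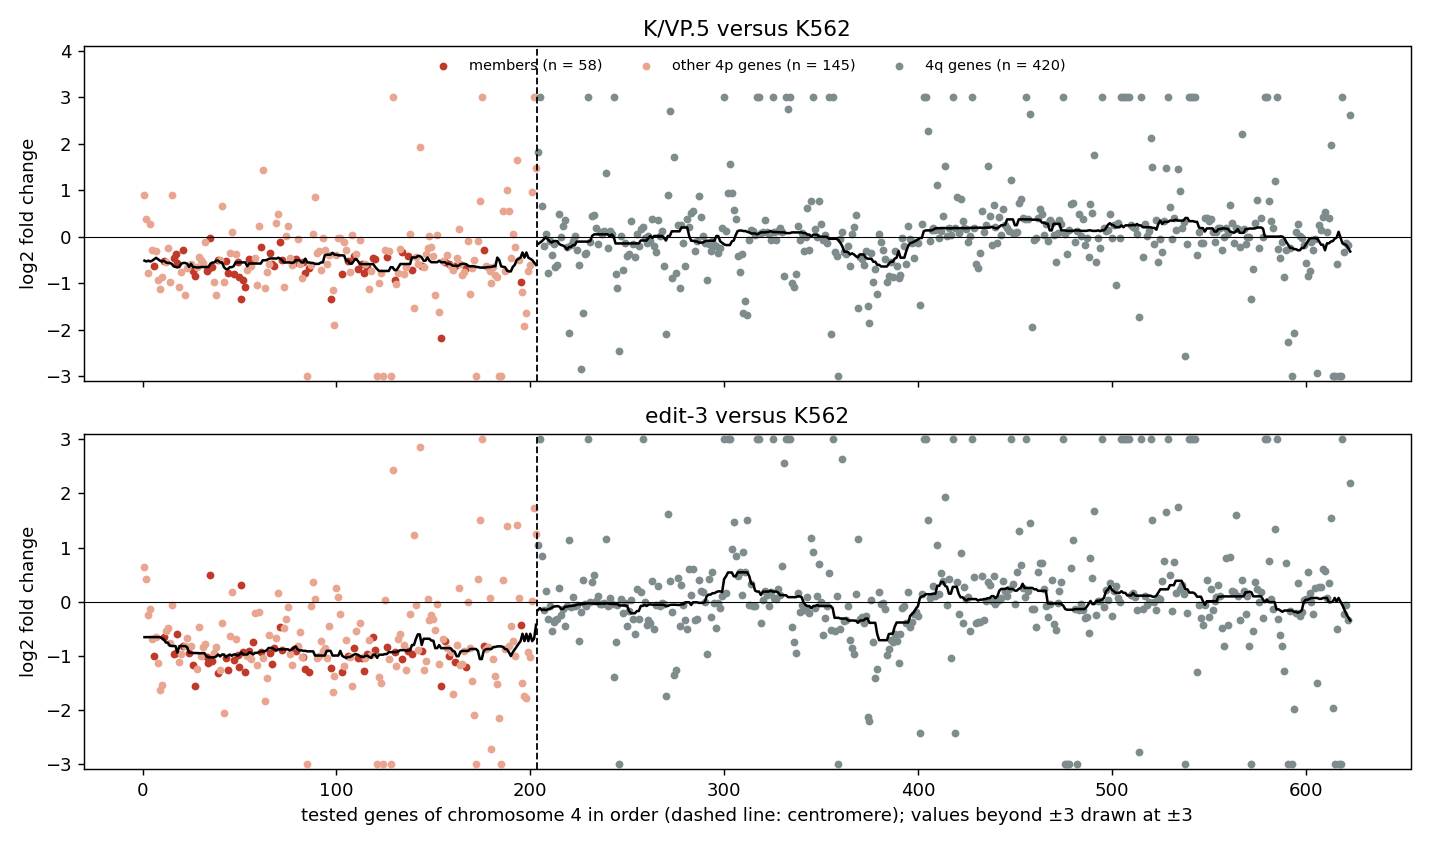
Log2 fold change (y axis) of each tested gene of chromosome 4 (points) in order along the chromosome (x axis) for K/VP.5 versus K562 and edit-3 versus K562, with the centromere as a dashed line and a running median over 21 genes of each arm in black. Values beyond 3 in size are drawn at 3. The running median lies below 0 along 4p, around the member medians of -0.59 and -0.97, and near 0 over most of 4q.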

How the data were processed

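Gene expression was deposited by the authors as raw read counts, whole numbers with no normalization, for 58395 genes in 12 libraries. Per the submitters' processing notes, HISAT2 2.1.0 and Subread 1.5.1 with featureCounts were used on GRCh38. No source used here gives the annotation release, the strand setting or the handling of multiply matching reads. Libraries were assigned to lines by source name, since the free-text description names parental cells for every library.

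The analysis used edgeR 4.0.16 in R 4.3.3. Genes with few reads were removed with filterByExpr, leaving 18286 genes with 99.89% of reads. A robust quasi-likelihood model with 1 coefficient per line and TMM factors was fitted to all 12 libraries, with Benjamini-Hochberg adjustment of p over all genes tested. The SE is the size of the log2 fold change divided by the square root of F. CPM values were computed from TMM-scaled library sizes. The fit was tested on simulated data. Positions and exons came from GENCODE 29, which matched 58275 gene IDs. 4p was taken to end before 49.5 Mb.

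The members, role groups and marker lists were chosen with earlier results of these data known. Members named by rule were the most abundant of each role group, those with the most extreme changes, those called higher and those removed by the filter, 20 in all. Alternatives were DESeq2 1.42.0, its size factors, TMM factors without chromosome 4, no low-count filter, a stricter filter (1 CPM in 4 libraries), only the compared lines, a replicate block and leaving out each library.

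Replicate numbers 1 to 4 recur in the titles of every line. For K562 and K/VP.5, libraries with the same number deviated together from their lines' means (correlations of 0.31, 0.15, 0.14 and 0.51 for numbers 1 to 4). Any pairing rests on that ground alone, since no label says so. The main fit did not use it, and only the replicate block alternative did.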

Additional observations from a re-analysis of the deposited data

Results flagged for a closer look

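In 60 groups of 4 libraries, each a named member in 1 line, 3 libraries stood far from the other libraries of their line by Dixon's criterion. Chance flags about 1 in 20 groups, which is 3 of 60. CTBP1 stood at 219 CPM in K562 replicate 3, with the other K562 libraries between 199 and 202 CPM. UVSSA stood at 55.4 CPM in K562 replicate 2, with the others between 48.4 and 49.5 CPM. WFS1 stood at 0.0323 CPM, a single read, in edit-3 replicate 1 and at 0 in the other edit-3 libraries. In the first 2 cases the library lay farther from K/VP.5 than the rest of its line.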

How the results depend on the processing

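The counts of members called, and of members lower in both steps, stayed within 1.5 times their values under all alternatives, and no median of the members changed sign. Leaving out 1 library gave 50 to 54, 38 to 49 and 56 to 57 members called in K/VP.5 versus K562, edit-3 versus K/VP.5 and edit-3 versus K562, and 34 to 44 lower in both steps. The member medians then ran from -0.61 to -0.55, from -0.46 to -0.38 and from -1.0 to -0.97. The medians of the other 4p genes ran from -0.57 to -0.50, from -0.31 to -0.24 and from -0.90 to -0.75, and the 4q median in edit-3 versus K562 from -0.02 to 0.04.

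The replicate block gave 56, 49 and 57 members called and 44 lower in both steps, and in K/VP.5 versus K562 it added calls of AFAP1, LYAR, SH3BP2 and TMEM33. In edit-3 versus K/VP.5 it added NCAPG (-0.20), STIM2 (-0.26) and SH3BP2 (1.58), and it changed no other call of a member. Deviations of edit-3 libraries correlated with same-numbered libraries at -0.07 to 0.36 (K/VP.5) and -0.11 to 0.47 (K562). Pairing of edit-3 thus had less ground, although the block was applied to its libraries too.

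The medians of other 4p genes moved to -0.23, -0.22 and -0.56 without a filter and to -0.26, -0.22 and -0.60 with DESeq2. In both, more genes with few reads entered. A stricter filter gave -0.88 in edit-3 versus K562. The 4q medians of the steps were 0.00 and 0.00 without a filter and with DESeq2, and that of edit-3 versus K562 was -0.02 with only the compared lines. Keeping genes of 10 CPM or more, chosen after seeing the data, gave -0.59 and -0.98 for the other 4p genes and 0.02 and -0.03 for 4q genes in K/VP.5 and edit-3 versus K562. The last 4p bin minus the first 4q bin was -0.40 and -0.77 in those comparisons with 10 Mb bins, and -0.05 and -0.25 with 5 Mb bins. At both widths the last 4p bin includes ANKRD20A17P, AC119751.6 and AC119751.4, which are counted as 4q by the 49.5 Mb cut. These differences thus do not separate the arms cleanly.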

Other observations

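A stretch of the long arm had values of its own. The 18 tested genes between 100 and 105 Mb had medians of -0.76 in K/VP.5 versus K562, -0.01 in edit-3 versus K/VP.5 and -0.73 in edit-3 versus K562, with 11, 3 and 11 called lower and 0 higher. The first step was thus of the size seen for the 4p members, and the second was near 0. The next bin, from 105 to 110 Mb, had medians of 0.12, -0.06 and 0.11 over 25 genes. On the other side, the bin from 95 to 100 Mb had medians of -0.32, 0.03 and -0.35 over 15 genes. In K/VP.5 versus K562, 8 of those 15 were called lower and 1 higher, so lower values were not confined to 100 to 105 Mb. The stretch from 100 to 105 Mb was picked out after its values were seen, it holds fewer than 20 genes, and its difference from the rest of 4q was not tested.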
